A study of Mus musculus with 8 samples.

Results

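The genes described here are the regulators that set and carry out the muscle programme: the myogenic factors Myod1, Myog, Myf5 and Myf6, the muscle stem cell factor Pax7, the MEF2 factors Mef2a, Mef2c and Mef2d, and the surface proteins Cdh15 and Megf10. These 10 genes were chosen by name, and 17 of the 56605 non-control probes on the array carry one of their names. Of the 17 probes, 15 were well above background on all 8 arrays and were kept, and 9 of the 10 genes were tested among 22221 genes. RNA came from the soleus, a slow postural muscle of the lower leg, of male C57BL/6J mice aged 14 weeks. All mice ate a high-fat diet, so the saline mice are diet-matched and no mice on other diets were compared here. From 8 weeks of age, 4 samples' mice received Porphyromonas gingivalis, an oral bacterium linked to gum disease, by feeding needle for 6 weeks, in 100 µL of saline, and 4 samples' mice received saline alone. The comparison asks how giving the bacterium by mouth altered expression in muscle. The labels describe random division into groups without saying whether each sample is 1 mouse. The p-values therefore reflect only the spread among these 8 samples.

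Adult muscle fibres are repaired by satellite cells, the muscle stem cells under the basal lamina. These cells are marked by the transcription factor Pax7. Myf5 is active in them both when quiescent and when dividing. On activation they express Myod1, divide as myoblasts, and then express Myog as they leave the cell cycle and fuse. Myf6 is the myogenic factor most abundant in mature fibres, and MEF2 proteins bind DNA with the myogenic factors and keep fibre genes, including those of slow fibres, active. Cdh15 (M-cadherin) joins satellite cells to fibres, and Megf10 is a receptor that holds satellite cells in a proliferative, undifferentiated state.

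Each value below is a log2 level, the log2 signal of a probe minus the 75th percentile of its own array on that scale. Levels of different probes are not comparable, since probes differ in how strongly they bind. On the single slide the P. gingivalis arrays lay in one row and the saline arrays in the other, and an effect of row and one of group cannot be told apart. The labels also disagree among themselves: in the authors' deposited table each of the 8 columns matches the same-numbered array of the opposite group. Here each sample keeps the group of its own record, and every direction given here would turn round under the table's column names. The number of probes well above background was 34853 to 35365 per P. gingivalis array, against 30177 to 34075 per saline array. P. gingivalis 2 carried an extraction status asking for evaluation and had the lowest 75th percentile of signal, 648 against up to 764 elsewhere. All 10 slow fibre markers and all 10 fast fibre markers used to check the tissue were well above background on all 8 arrays.

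None of the 9 tested genes differed between the groups at an adjusted p under 0.05 in limma's fit over all genes, and none did at an unadjusted p under 0.05. Over all genes, 26 of 22221 passed (0.117%), 8 of them higher (0.036%) and 18 lower (0.081%) after P. gingivalis, and 4383 (19.7%) had an unadjusted p under 0.05. The split of the calls depends on the scaling: 271 were higher and 182 lower with normexp background correction, 152 and 64 with quantile normalization, and 2290 and 95 with arrays centred on their medians, a scaling that moves the median difference of all genes to 0.14. Of the 9 genes, 4 had positive and 5 negative differences, and the groups overlapped for all 9, where groups did not overlap for 13.4% of all genes (7.35% with P. gingivalis above saline). The median difference of the 9 was -0.022 on the log2 scale, against -0.011 for all genes, and the median size of the difference was 0.134, against 0.126. Their median SD within a group was 0.147, against 0.144 for all genes.

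**Figure D1:**
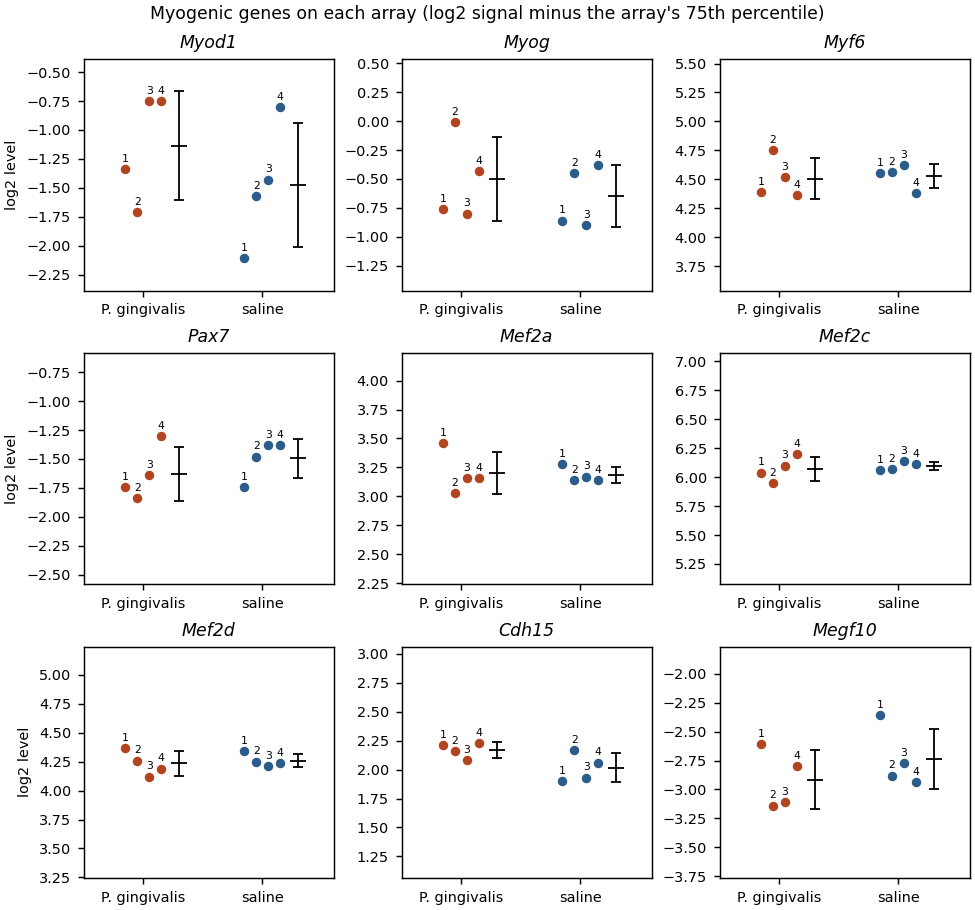
Log2 level (signal minus the array's 75th percentile) of the brightest kept probe of each of the 9 tested genes on each array, with replicate numbers beside the points and mean ± SD (n = 4) as bars, P. gingivalis at the left of each panel and saline at the right. All panels span the same number of log2 units, and in all 9 the groups overlap; Myod1 and Myog have the widest spread.

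Myod1, the factor that commits cells to the muscle fate and is switched on in activated satellite cells, was the most scattered of the 9 tested genes. Its probe, A_51_P351166 for NM_010866, lies on chromosome 7 from 53633956 to 53634015 in mouse build mm9, the build of all positions here; exon and UTR annotation of that build was not used here. Its log2 level was -1.34, -1.71, -0.75 and -0.75 on P. gingivalis arrays 1 to 4, against -2.11, -1.57, -1.43 and -0.80 on saline arrays 1 to 4. The 2 highest values were on P. gingivalis arrays and the lowest on saline 1, but saline 4 stood beside the highest, so the groups overlap. The means were -1.14 ± 0.47 and -1.48 ± 0.54 (SD, n = 4 each), a log2 difference of 0.34 ± 0.32 (SE) with adjusted p = 0.575 in limma. The ratio was 1.27 with a 95% interval from 0.766 to 2.1, the widest of the 9. These values therefore do not exclude changes inside that interval, in either direction. In a sample of whole muscle, fewer cells of a type and less RNA per cell cannot be told apart, which holds for each gene of rare cells named here.

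Myog (myogenin, A_51_P102122 for NM_031189, chromosome 1 from 136188874 to 136188933), which drives myoblasts into terminal differentiation, had log2 levels of -0.76, -0.01, -0.80 and -0.43 on the P. gingivalis arrays, against -0.86, -0.45, -0.90 and -0.38 on the saline arrays. P. gingivalis 2 was highest, and the lowest values of both groups lay close together. The log2 difference was 0.15 ± 0.20 (SE, n = 4 and 4), adjusted p = 0.707 in limma, with a 95% interval from -0.32 to 0.62. Without P. gingivalis 2 the difference was -0.01, so its sign rests on that array.

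Myf6 (A_51_P386794 for NM_008657) and Myf5 (A_51_P188281 for NM_008656) are neighbouring genes, with probes on the minus strand of chromosome 10 from 106930237 to 106930296 and from 106919974 to 106920033. Myf6, the factor of mature fibres, was far above background, with log2 levels of 4.39, 4.75, 4.52 and 4.36 on the P. gingivalis arrays against 4.55, 4.56, 4.62 and 4.38 on the saline arrays. The saline values all lay inside the range of the P. gingivalis values. Its log2 difference was -0.02 ± 0.10 (SE), adjusted p = 0.92 in limma, and the 95% interval from -0.26 to 0.21 holds changes of that size in either direction. Myf5, active in quiescent and dividing satellite cells, was at background on all 8 arrays by the scanner software's own flag. Its signals gave log2 levels of -7.65, -7.66, -7.81 and -7.79 on the P. gingivalis arrays and -6.86, -7.07, -6.63 and -7.37 on the saline arrays, and with both groups at background no fold is given.

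Pax7, the transcription factor that marks satellite cells, had log2 levels of -1.74, -1.84, -1.64 and -1.30 on the P. gingivalis arrays, against -1.74, -1.48, -1.38 and -1.38 on the saline arrays (A_66_P105609 for NM_011039, chromosome 4 from 139294031 to 139294090). P. gingivalis 4 was the highest of all 8, and P. gingivalis 1 and saline 1 were level. The log2 difference was -0.13 ± 0.13 (SE, n = 4 and 4), adjusted p = 0.606 in limma, with a 95% interval from -0.44 to 0.18. The ratio was 0.911, with a 95% interval from 0.735 to 1.13.

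Cdh15 (M-cadherin, A_51_P481930 for NM_007662, chromosome 8 from 125391031 to 125391090) was at 2.21, 2.16, 2.08 and 2.23 on the P. gingivalis arrays, against 1.90, 2.17, 1.93 and 2.06 on the saline arrays. Saline 2 lay among the P. gingivalis values, and the other 3 saline values lay below all 4 of them. The means were 2.17 ± 0.07 and 2.02 ± 0.13 (SD, n = 4 each), a log2 difference of 0.15 ± 0.08 (SE) with adjusted p = 0.304 in limma and p = 0.0857 in a two-sided exact permutation test of the 8 arrays. With arrays centred on their medians, under which the median of all genes is 0.14, Cdh15 passed at a difference of 0.30 with adjusted p = 0.0404, and in no other setting. Under that scaling 2385 of 22221 genes passed.

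Megf10, the receptor of proliferating satellite cells, was at -2.61, -3.14, -3.11 and -2.80 on the P. gingivalis arrays, against -2.36, -2.88, -2.77 and -2.94 on the saline arrays (A_55_P1964568 for NM_001001979, chromosome 18 from 57457056 to 57457115). The groups overlap, with saline 1 highest and P. gingivalis 2 lowest. The log2 difference was -0.18 ± 0.16 (SE, n = 4 and 4), adjusted p = 0.576 in limma, with a 95% interval from -0.56 to 0.2. A second probe, A_66_P106944, was not well above background on any array.

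Mef2a, Mef2c and Mef2d encode MADS-box transcription factors that bind DNA beside the myogenic factors, and they were read by 9 kept probes. At the brightest probe of each gene, which was also the one farthest downstream, no difference was detected. The Mef2a probe (A_55_P2733817 for NM_001291196, chromosome 7 from 74376810 to 74376869) was at 3.46, 3.03, 3.16 and 3.16 on the P. gingivalis arrays, against 3.28, 3.14, 3.17 and 3.14 on the saline arrays, and P. gingivalis 1 and 2 lay at the top and bottom. The Mef2c probe (A_65_P01126 for NM_001170537, chromosome 13 from 83803888 to 83803947) was at 6.04, 5.95, 6.10 and 6.20 on the P. gingivalis arrays, against 6.06, 6.07, 6.14 and 6.11 on the saline arrays. The Mef2d probe (A_51_P394676, chromosome 3 from 87975777 to 87975836) was at 4.37, 4.26, 4.12 and 4.19 on the P. gingivalis arrays, against 4.34, 4.25, 4.21 and 4.24 on the saline arrays. For all 3 genes the saline values lay inside the range of the P. gingivalis values. The log2 differences were 0.02 ± 0.09 for Mef2a, -0.03 ± 0.07 for Mef2c and -0.03 ± 0.07 for Mef2d (SE, n = 4 and 4), with adjusted p of 0.914, 0.854 and 0.855 in limma. The 95% interval of the Mef2c ratio ran from 0.882 to 1.09, the narrowest of the 9 genes.

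Of the 6 kept probes lying further upstream in the MEF2 genes, 3 had every P. gingivalis array above every saline array, 1 probe of each gene, where 8.74% of all kept probes showed this. Probes of a gene were not tested against each other. The Mef2a probe A_52_P311841 (NM_001033713, chromosome 7 from 74379743 to 74379802, minus strand), 2933 bases upstream of the brightest one, was at -0.39, -0.40, -0.47 and -0.38 on the P. gingivalis arrays, against -0.76, -0.71, -0.66 and -0.65 on the saline arrays. The values within each group were tight and the gap between the groups was wider than either range. The log2 difference was 0.28 ± 0.05 (SE, n = 4 and 4), a ratio of 1.22 with a 95% interval from 1.12 to 1.33. In limma's fit over all 33636 kept probes its adjusted p was 0.0654 (range over all alternatives 0.0194 to 0.24), so it did not pass, and the two-sided exact permutation p of 0.0286 is the smallest that 70 assignments can give. It passed under 5 alternatives: quantile normalization (0.29, adjusted p = 0.043), median centring (0.43, adjusted p = 0.0194), no filter on dim probes (adjusted p = 0.0253), a trended and robust variance (adjusted p = 0.0421) and the filter on all 8 arrays (adjusted p = 0.0453). Its sign held in every setting tried.

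The Mef2c probe A_55_P2155620 (NM_025282), which spans 2238 bases of chromosome 13 from 83772788 to 83775025 and lies 28922 bases upstream of the brightest Mef2c probe, was at 2.22, 2.29, 2.38 and 2.59 on the P. gingivalis arrays, against 2.0, 2.12, 2.19 and 2.01 on the saline arrays. P. gingivalis 1 stood just above saline 3, so the groups are separate by a narrow margin. The log2 difference was 0.29 ± 0.09 (SE, n = 4 and 4), adjusted p = 0.15 in limma, and it passed under median centring (0.44, adjusted p = 0.0354). At 138190 bases upstream, A_55_P2730921 was at -0.94, -0.77, -0.69 and -0.47 on the P. gingivalis arrays, against -0.04, -0.82, -0.48 and -0.14 on the saline arrays, a log2 difference of -0.35 ± 0.18 with adjusted p = 0.322 in limma. A_65_P11889, at 135714 bases upstream, had a log2 difference of -0.22 ± 0.22 with adjusted p = 0.598 in limma. The 4 Mef2c probes therefore do not give one direction, and the groups overlapped at both of the far upstream probes.

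The Mef2d probe A_55_P1966958 (NM_133665, chromosome 3 from 87972971 to 87973030), 2806 bases upstream of the brightest Mef2d probe, was at 1.39, 1.46, 1.59 and 1.23 on the P. gingivalis arrays, against 1.13, 1.14, 1.22 and 1.02 on the saline arrays. P. gingivalis 4 and saline 3 nearly met. The log2 difference was 0.29 ± 0.09 (SE, n = 4 and 4), adjusted p = 0.13 in limma, and it passed under median centring (0.44, adjusted p = 0.0323). The third Mef2d probe, A_51_P504672, was at 0.53, 0.22, 0.46 and 0.34 on the P. gingivalis arrays, against 0.22, 0.40, 0.36 and 0.24 on the saline arrays, with a log2 difference of 0.08 ± 0.08 and adjusted p = 0.614 in limma. Its groups overlapped, unlike those of its neighbour.

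**Figure D2:**
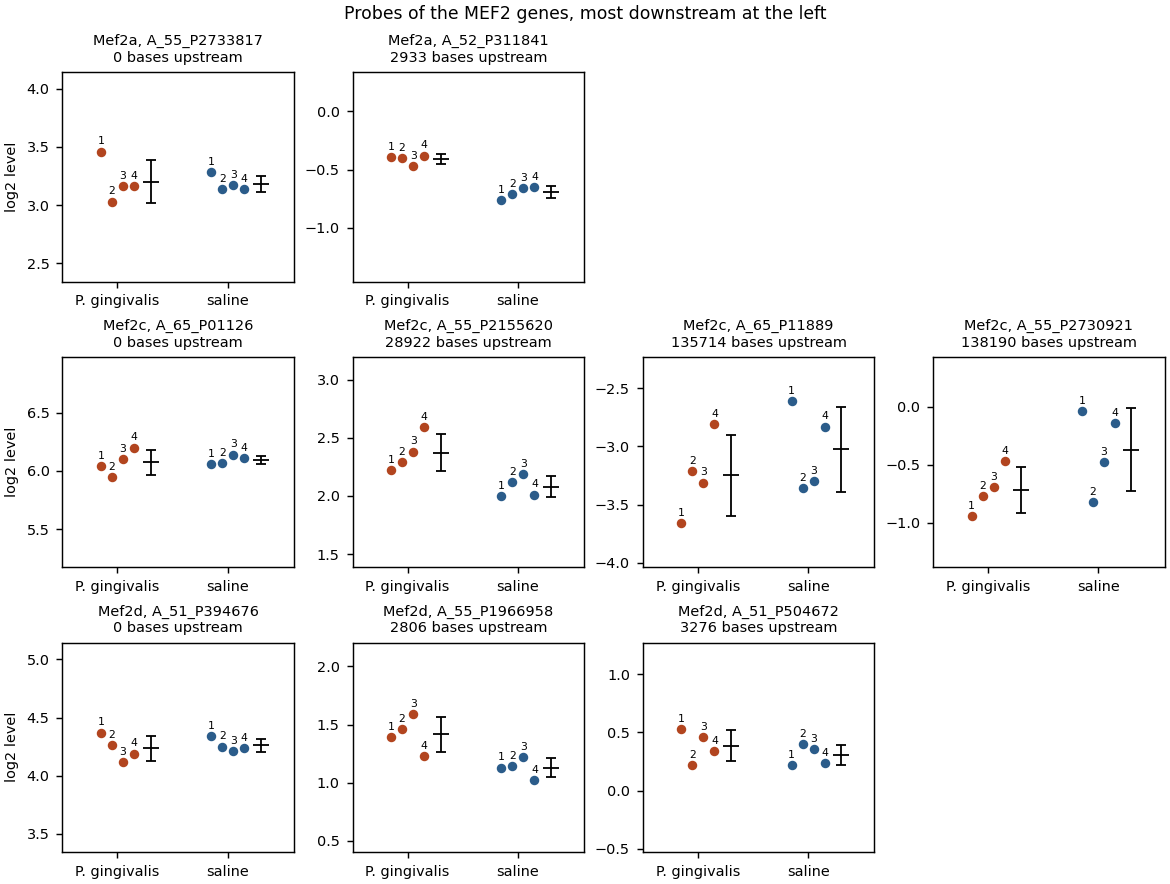
Log2 level of each of the 9 kept MEF2 probes on each array, 1 row per gene, the most downstream probe at the left and the distance upstream of it in bases above each panel, with replicate numbers and mean ± SD (n = 4), P. gingivalis left of saline. The groups separate at 1 upstream probe of each gene (2933, 28922 and 2806 bases) and overlap at the other 6 probes.

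The sequences of 3 upstream probes are shown because the probes of a MEF2 gene gave different values: 2 of them separated the groups, and 1 is the closest in sequence to another gene's probe. Mef2a and Mef2d encode related proteins, and capitals mark the 21 identical bases in the best ungapped match of 29 bases between their probes, the closest match among 26 pairs of probes from different MEF2 genes; the Mef2c probe has no capitals. The probe lengths are 60 bases each, read 5′ to 3′ as the files give them.
Mef2a A_52_P311841: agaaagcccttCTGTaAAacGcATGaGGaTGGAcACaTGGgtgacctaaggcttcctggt
Mef2d A_51_P504672: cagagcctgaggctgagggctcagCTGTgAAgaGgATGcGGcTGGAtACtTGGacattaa
Mef2c A_55_P2155620: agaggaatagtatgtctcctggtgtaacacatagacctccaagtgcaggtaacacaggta
The Mef2d probe spans 347 bases of chromosome 3 from 87972214 to 87972560 in mm9, a stretch longer than the probe itself. The Mef2a probe had a log2 difference of 0.28 and the Mef2d probe one of 0.08, whose 95% interval ran from -0.11 to 0.28, and these differences were not tested against each other.

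Counted over all 15 kept probes of the 10 genes, 0 had an adjusted p under 0.05, where 57 of 33636 probes (0.169%) did. An unadjusted p under 0.05 was found for 3 of the 15, all upstream MEF2 probes, which is close to the 20.6% of all kept probes. Every P. gingivalis array was above every saline array for the same 3 of 15, where 8.74% of all kept probes showed this. Probes along other genes also read unequally. Among 7293 genes with at least 2 kept probes on 1 strand, the median difference of the upstream probes exceeded that of the most downstream probe in 59.2%, with a median gap of 0.052 and the 10th and 90th percentiles at -0.29 and 0.34. The same gap was 0.26 for Mef2a, 0.21 for Mef2d and -0.2 for Mef2c, all inside that range. Of 6186 genes whose most downstream probe overlapped between the groups, 996 (16.1%) had an upstream probe with every P. gingivalis array above every saline array.

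**Figure D3:**
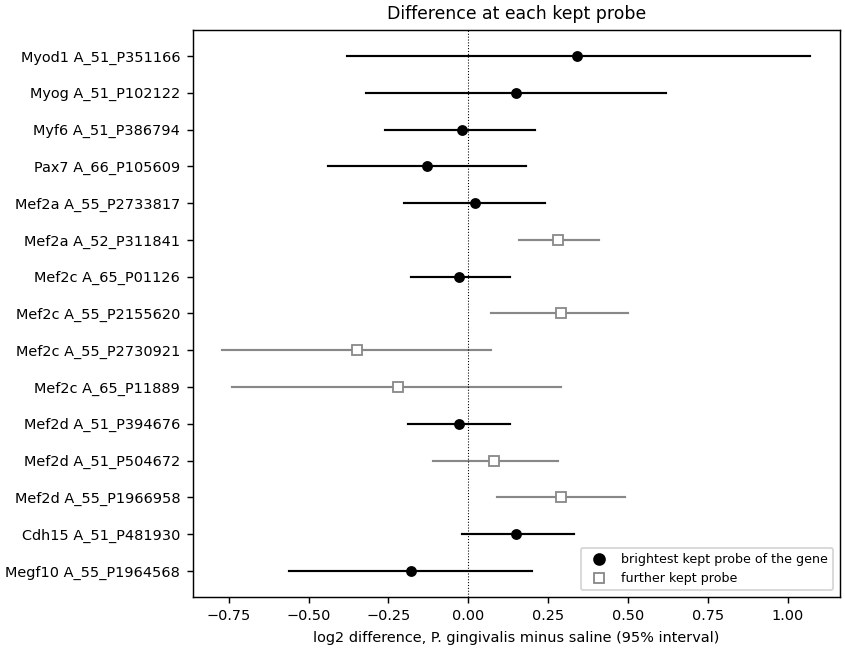
Log2 difference (P. gingivalis minus saline) with its 95% interval at each of the 15 kept probes, filled circles for the brightest probe of a gene and open squares for further probes. The intervals of the 9 brightest probes all hold 0, and those of 1 further probe each of Mef2a, Mef2c and Mef2d lie above 0.

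In the authors' deposited table, 13 rows belong to these genes and 0 had an adjusted p under 0.05, while 431 of 28250 rows (1.53%) did. The authors' deposited table gives the Mef2a probe A_52_P311841 a log2 difference of -0.25 with adjusted p = 0.0659, the opposite sign under its exchanged columns. For Myod1 the authors' deposited table gives -0.28 and for Cdh15 -0.12, with adjusted p of 0.595 and 0.414, again opposite in sign and close in size to the values above.

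The reported MEF2 targets in muscle hold genes of the contractile and metabolic fibre programme, and others such as Jun, Klf6, Hdac9 and Dlk1. All 14 targets were tested, and 0 passed in limma (5 at an unadjusted p under 0.05). Their median log2 difference was 0.07, with 8 positive and 6 negative and 4 without overlap. Over all genes, 19.7% had an unadjusted p under 0.05 in limma and 13.4% were without overlap. These shares stand beside the counts of this list and of every list below. Mb, which encodes the oxygen-binding protein myoglobin, was at 9.25, 9.44, 9.25 and 9.25 on the P. gingivalis arrays, against 8.96, 8.97, 9.0 and 8.97 on the saline arrays. All 4 P. gingivalis values were above all saline values, with a log2 difference of 0.32 ± 0.06 (SE) and adjusted p = 0.0649 in limma, though under other scalings the difference was between 0.10 and 0.47. Xirp2, an actin-binding protein of the fibre's attachment sites, had a log2 difference of -0.39 with adjusted p = 0.157 and all P. gingivalis values below the saline values. Ppargc1a, the coactivator of mitochondrial genes, was at 0.36 (adjusted p = 0.424) and Nr4a1, an activity-induced nuclear receptor, at -0.39 (adjusted p = 0.37), both with overlapping groups. Beside these, all 10 slow fibre and all 10 fast fibre markers had positive log2 differences in this scaling, with medians of 0.12 and 0.17 and 0 past the threshold (5 and 3 at an unadjusted p under 0.05). With quantile normalization 8 of 10 were positive in each list, and with the deposited table's processing rebuilt 7 of 10 slow and 8 of 10 fast fibre markers were. The slow and fast medians shrank to 0.03 and 0.08 with quantile normalization, and to 0.05 and 0.06 with the processing rebuilt. They were 0.15 and 0.2 with normexp, and 0.27 and 0.32 with median centring. In the scaling reported, the mean level of the slow fibre markers on each array, relative to each gene's own mean, was 0.02 to 0.12 on the P. gingivalis arrays and -0.13 to -0.01 on the saline arrays. The fast fibre markers overlapped widely, at 0.23, 0.47, -0.39 and 0.22 on the P. gingivalis arrays against -0.89, 0.24, 0.26 and -0.16 on the saline arrays. The smallest adjusted p among them was that of Atp2a1, the calcium pump of fast fibres, with a log2 difference of 0.50 and adjusted p = 0.0556 in limma. The part of fibre content in the MEF2 readings was not tested.

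Among 39 partners and inhibitors of the myogenic factors, 0 passed in limma (13 at an unadjusted p under 0.05), 15 had positive and 24 negative differences, and the median was -0.1, or 0.05 with arrays centred on their medians. Calls in this list appeared under 7 alternatives, 1 to 4 genes each. There were 4 under median centring, where 2385 of 22221 genes passed, and 3 with normexp, where 453 did. The inhibitor Id1, which encodes a helix-loop-helix protein that binds the partners of MyoD and keeps it off DNA, was at 2.08, 2.21, 2.10 and 2.29 on the P. gingivalis arrays, against 2.83, 2.47, 2.69 and 2.76 on the saline arrays. All P. gingivalis values were below all saline values, and the log2 difference was -0.51 ± 0.09 (SE, n = 4 and 4) with adjusted p = 0.0612 in limma. Its relative Id3 was at 1.08, 1.18, 0.88 and 1.30 on the P. gingivalis arrays, against 1.6, 1.44, 1.30 and 1.48 on the saline arrays. P. gingivalis 4 and saline 3 were equal to the second decimal, and the log2 difference was -0.35 ± 0.10 with adjusted p = 0.137 in limma. Id1 and Id3 are also abundant in vessel cells. The endothelial markers had a median difference of -0.13, with 7 of 10 negative (4 of 10 under median centring) and 0 past the threshold (4 at an unadjusted p under 0.05), and their mean level per array was -0.18 to 0.09 on the P. gingivalis arrays and 0.02 to 0.11 on the saline arrays. Of the endothelial markers, Kdr, the main receptor of vascular endothelial growth factor, had a log2 difference of -0.55 (adjusted p = 0.0643) and the secreted vessel factor Egfl7 one of -0.40 (adjusted p = 0.0594) in limma. Others of the list went the other way, Pecam1 at 0.18 (adjusted p = 0.238), Tie1 at 0.18 and Tek at 0.06, so the list gives no single direction. The part of endothelial RNA in the Id values was not tested.

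Ep300, an acetyltransferase that MyoD and MEF2 recruit, was at -0.08, -0.28, -0.25 and 0.08 on the P. gingivalis arrays, against -0.64, -0.68, -0.50 and -0.64 on the saline arrays. The groups did not overlap, and the log2 difference was 0.48 ± 0.09 (SE) with adjusted p = 0.0668 in limma, but 2 other Ep300 probes were at 0.08 and 0.13. Mef2b, the fourth MEF2 gene, had the greatest log2 difference of the list in size, -1.02 ± 0.49 with adjusted p = 0.295 in limma. Its P. gingivalis values ran from -3.66 to -3.21, against saline values of -2.98, -0.79, -3.23 and -2.60, and saline 2 was far above the rest. Another Mef2b probe was at -0.27.

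Of 26 satellite cell and myoblast genes 23 were tested, and of 18 Notch pathway genes all were. Notch signalling keeps satellite cells quiescent. In each list 0 passed in limma (5 and 3 at an unadjusted p under 0.05), with median log2 differences of -0.05 and -0.04. Hey1, a repressor induced by Notch in quiescent satellite cells and in vessels, was at -0.02, -0.02, -0.08 and 0.23 on the P. gingivalis arrays, against 0.37, 0.49, 0.25 and 0.51 on the saline arrays. All P. gingivalis values were below the saline values, P. gingivalis 4 and saline 3 by a narrow margin, with a log2 difference of -0.38 ± 0.09 (SE) and adjusted p = 0.0987 in limma. Maml1, a coactivator of Notch, had a log2 difference of -0.29 with adjusted p = 0.11 and no overlap. Mfng and Lfng, glycosyltransferases that tune Notch receptors, were at -0.45 (adjusted p = 0.176) and 0.39 (adjusted p = 0.146), opposite in sign, and the feedback inhibitor Nrarp was at -0.42 (adjusted p = 0.475). The adhesion molecule Vcam1 was at -0.32 (adjusted p = 0.198), the chemokine receptor Cxcr4 at 0.29 (adjusted p = 0.464) and the proteoglycan Sdc4 at 0.33 (adjusted p = 0.505), with overlapping groups for each. With arrays centred on their medians the list medians were 0.09 and 0.11, so neither list has a direction that holds under every scaling.

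Among 27 genes of differentiation, fusion and the embryonic muscle programme 0 passed in limma (6 at an unadjusted p under 0.05), with a median log2 difference of -0.08. Among 15 denervation-responsive genes 0 passed (4 at an unadjusted p under 0.05), with a median of -0.1. Median centring turned these medians to 0.07 and 0.05. Jam3 and Cdon, surface proteins of myoblasts, had log2 differences of -0.37 (adjusted p = 0.142) and -0.31 (adjusted p = 0.119), each without overlap, and another Cdon probe was at -0.12. Cdkn1a, the cell cycle inhibitor p21, was at 0.42 (adjusted p = 0.52) with overlap. Runx1, a transcription factor induced by denervation, had a log2 difference of -0.53 ± 0.12 with adjusted p = 0.0974 and no overlap, while its other probes ran from -0.51 to 0. Hdac4, a repressor of MEF2, was at 0.32 (adjusted p = 0.214), with other probes from -0.1 to 0.34.

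Within the saline arrays, several embryonic and cell cycle genes were higher on saline 2 and saline 4 than on saline 1 and saline 3. This was noticed in the values and not tested, and other genes of the same lists did not follow it: on saline arrays 1 to 4, Actc1 was at 2.12, 2.81, 2.82 and 2.38, Chrna1 at 3.28, 3.09, 3.58 and 3.44, Tnnt2 at 0.86, 0.54, 0.90 and 0.94 and Pcna at 2.77, 2.66, 2.62 and 2.68. Myh3, the embryonic myosin heavy chain seen in regenerating fibres, was at 2.81, 3.07, 2.54 and 3.06 on the P. gingivalis arrays, against 2.94, 5.06, 3.16 and 3.75 on the saline arrays. Saline 2 was far above the other 7 arrays, and the log2 difference was -0.86 ± 0.43 (SE) with adjusted p = 0.317 in limma. The next 3 genes were named after their values had been seen. Mymx, the small protein that fuses myoblasts, was well above background on 5 arrays, at -3.81, -5.16, -5.36 and -5.50 on the P. gingivalis arrays against -5.83, -2.31, -6.21 and -2.52 on the saline arrays. Chrng, the embryonic subunit of the acetylcholine receptor, was at -3.94, -3.94, -4.74 and -4.58 on the P. gingivalis arrays against -4.70, -3.03, -3.82 and -3.20 on the saline arrays, and well above background on 7. Top2a, a topoisomerase of dividing cells, was at -4.84, -5.48, -4.56 and -3.72 on the P. gingivalis arrays against -5.55, -3.30, -5.37 and -3.21 on the saline arrays, and well above background on 5. In these 3 genes saline 2 and saline 4 were the highest of the 8 arrays and saline 1 and saline 3 were lower.

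Of 20 proliferation genes 16 were tested and 0 passed in limma (4 at an unadjusted p under 0.05), with a median log2 difference of -0.21 and 12 of 16 negative, or 8 of 16 under median centring. The median was -0.02 without saline 2 and -0.05 without saline 4 and -0.08 without P. gingivalis 2, and reached -0.32 without saline 1. Mki67, the marker of cycling cells, was at -2.81, -2.87, -2.69 and -2.14 on the P. gingivalis arrays, against -2.80, -1.58, -2.63 and -1.46 on the saline arrays. The cyclin gene Ccnb2 was at -3.17, -3.23, -3.13 and -3.03 on the P. gingivalis arrays, against -3.05, -2.10, -2.79 and -2.14 on the saline arrays, a log2 difference of -0.62 with adjusted p = 0.18 in limma. Saline 2 and saline 4 were again the 2 highest for both genes. Birc5, which guards chromosome segregation, was at -0.65 (adjusted p = 0.335) and Tyms, which makes thymidylate, at -0.60 (adjusted p = 0.268). The mean level of the 16 genes relative to each gene's own mean was -0.24 to 0.08 on the P. gingivalis arrays, against -0.24, 0.47, -0.18 and 0.43 on saline arrays 1 to 4. The macrophage markers were at -0.31, -0.60, 0.16 and 0.07 on the P. gingivalis arrays, against 0.09, 0.71, -0.67 and 0.55 on the saline arrays, so saline 2 and saline 4 were again the highest. Their median log2 difference was -0.24, with 0 of 10 past the threshold or at an unadjusted p under 0.05. Markers of the fibro-adipogenic stroma were at -0.09, -0.33, 0.24 and 0.14 on the P. gingivalis arrays, against -0.17, 0.23, -0.34 and 0.31 on the saline arrays, and had a median difference of 0. The Schwann cell, adipocyte and pericyte and smooth muscle lists had median differences of -0.18, -0.04 and 0.12, each with 0 past the threshold. The part of these cells in the growth and embryonic transcripts was not tested.

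Of the myogenic factors, Myog was also higher on saline 2 and saline 4 than on the other saline arrays. Its levels on P. gingivalis 2 and 4 (-0.01 and -0.43) were likewise above those on P. gingivalis 1 and 3 (-0.76 and -0.80). Among the saline arrays, Myod1 was highest on saline 4 and lowest on saline 1, and Pax7 was level on saline 3 and saline 4 and lowest on saline 1. The satellite cell and myoblast list stayed between -0.06 and 0.06 on all 8 arrays.

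**Figure D4:**
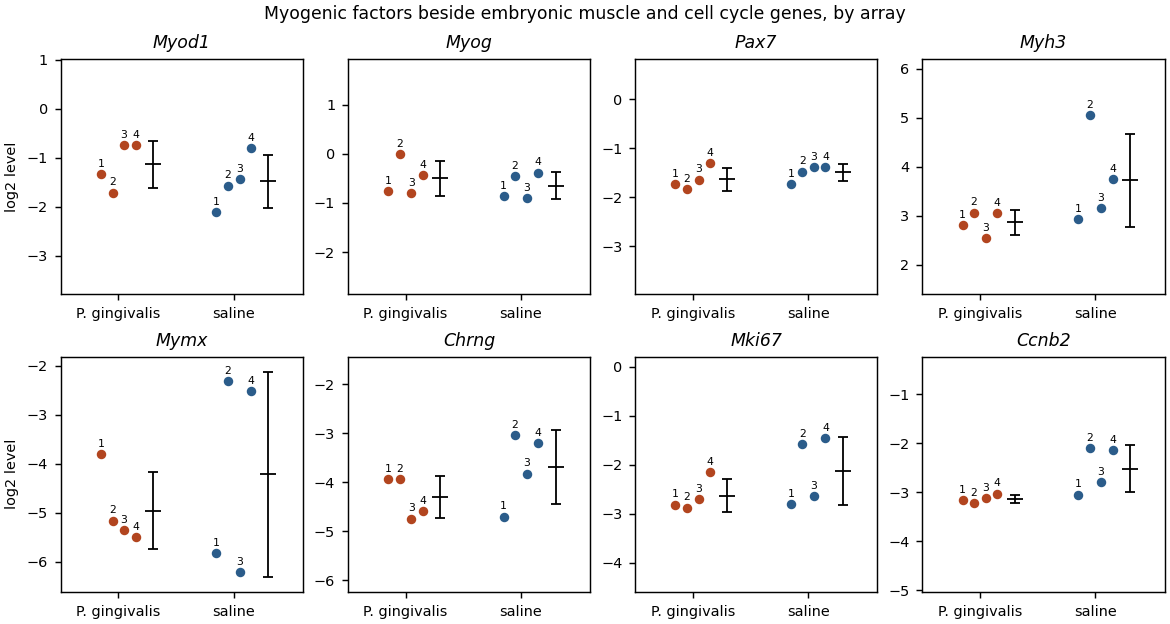
Log2 level of Myod1, Myog and Pax7 beside the embryonic and fusion genes Myh3, Mymx and Chrng and the cell cycle genes Mki67 and Ccnb2 on each array, with replicate numbers and mean ± SD (n = 4), P. gingivalis left of saline, all panels spanning the same number of log2 units. Saline 2 and saline 4 lie above saline 1 and saline 3 for Myog, Myh3, Mymx, Chrng, Mki67 and Ccnb2, and the groups overlap in all 8 panels.

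Over the 8 arrays the 9 genes did not move as one. Pearson's r between brightest probes was 0.89 for Pax7 and Mef2c, 0.58 for Pax7 and Myod1, 0.07 for Myod1 and Myog and -0.61 for Myod1 and Myf6, each over 8 arrays that share a slide and a scaling. The genes most like Myod1 over the 8 arrays were Tctex1d2 (r = 0.978), Rpap2 (r = 0.96) and Pdzd11 (r = 0.946). Those most like Myog were Bhmt (r = 0.93), 5730480H06Rik (r = 0.929) and 4930560O18Rik (r = 0.906), and those most like Pax7 were Sh3pxd2a (r = 0.972), a long noncoding RNA probe and Ric3 (r = 0.958). With 22221 genes and 8 arrays, such values describe these arrays and carry no test.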

How the data were processed

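Soleus RNA (200 ng per sample, Cy3, 1 colour) was measured on 8 Agilent mouse arrays. The deposited spot intensity values came, per the file headers, from Feature Extraction 11.0.1.1 and were background-subtracted by it; the submitters' processing notes list Agilent Feature Extraction 11.1. The authors' deposited table gives log2 values and p-values; its 2 score columns (t and B, as deposited) were left aside.

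Processed signals were put on the log2 scale, and the 75th percentile over an array's non-control spots was subtracted. Outlier-flagged spots were left out, the 239 probes then without a value on at least 1 array were dropped, and probes well above background on at least 4 arrays (33636 of 56605) were kept, named through RefSeq accessions or symbols (GRCm38.p6, names only). The brightest kept probe represented each of 22221 genes. The comparison used lmFit and eBayes (limma 3.58.1, R 4.3.3), two-sided and without covariates, with p-values adjusted by Benjamini-Hochberg over the 22221 genes; further probes took theirs from the same fit over all kept probes. The fit was tested on simulated data. The number of arrays limits the precision. Same-numbered arrays of the 2 groups shared a column of the slide. Over all genes tested they deviated together at r = 0.06, -0.06, -0.04 and 0.23, so the numbers were not treated as pairs. A replicate block narrowed the SE of Myog from 0.20 to 0.09 and that of Myod1 from 0.32 to 0.19. Their adjusted p in limma was then 0.419 and 0.371.

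The genes and lists were chosen with earlier results of these data known. Named were all probes of the 10 genes and, per list, genes past the threshold plus the 4 greatest differences among genes well above background on all 8 arrays, with examples from the marker lists. Of the genes this rule names, 1 is not reported here. Of the alternatives, 3 were added after the data were seen: P. gingivalis 3 and saline 1 left out together, the deposited table's processing rebuilt, and the most downstream probe per gene.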

Additional observations from a re-analysis of the deposited data

Results flagged for a closer look

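Dixon's test at the 95% level was applied to 104 groups of 4 arrays, over the kept probes of the 10 genes, the named list genes and the list levels, and 4 values stood apart, where chance alone gives about 1 in 20 (5%). None was a value of the 10 genes themselves. Sdc4, a proteoglycan of satellite cells, was at a log2 level of 2.46 on saline 3, with the other saline arrays at 1.53 to 1.63. Runx1 was at -0.82 on saline 3, with the other saline arrays at -0.47 to -0.45. Mb was at 9.44 on P. gingivalis 2, with the other P. gingivalis arrays at 9.25. The mean level of the reported MEF2 targets was 0.17 on P. gingivalis 2, with the other P. gingivalis arrays at -0.04 to -0.02. P. gingivalis 2 is the array whose extraction status asked for evaluation. Its 75th percentile of signal, subtracted on the log2 scale from each of its levels, was 648. On P. gingivalis 1, 3 and 4 it was 738, 733 and 726. The part of the scaling in these 2 values was not tested.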

How the results depend on the processing

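Of the 10 genes, 0 passed an adjusted p of 0.05 in limma under any alternative except median centring and no filter on dim probes. Under median centring 1 passed (Cdh15, 0.30), where 2385 of 22221 genes did. With no filter on dim probes 1 passed (Myf5, with both groups below background, so the call carries no fold), where 5154 of 36895 genes did. Of those 5154 genes, 4642 were lower after P. gingivalis. The cause of these calls was not tested. Signs turned for Mef2a, Mef2c, Mef2d and Myf6, whose differences in the setting reported were near 0 (-0.03 to 0.02). They also turned for Myog (0.15), Pax7 (-0.13) and Megf10 (-0.18). Median centring, under which the median of all genes was 0.14 against -0.01 before, gave 0.12 for Mef2c, 0.12 for Mef2d, 0.13 for Myf6 and 0.01 for Pax7. Mef2d was at 0.11 with the mean of its probes, at 0.00 with normexp and, with P. gingivalis 3 and saline 1 both left out, at 0.04, where Megf10 was at 0.01. Myf6 was at 0.03 with array weights. Leaving out 1 array in turn gave ranges of -0.06 to 0.08 for Mef2a (negative without P. gingivalis 1), -0.07 to 0.02 for Mef2c (positive without P. gingivalis 2), -0.07 to 0.01 for Mef2d (positive without P. gingivalis 3), -0.11 to 0.03 for Myf6 (positive without saline 3, P. gingivalis 1 or P. gingivalis 4) and -0.01 to 0.25 for Myog (negative without P. gingivalis 2). Myod1 kept its sign at 0.13 to 0.57, Cdh15 at 0.11 to 0.21, Pax7 at -0.24 to -0.06 and Megf10 at -0.28 to -0.05. With P. gingivalis 3 and saline 1 both left out, however, the Myod1 difference was 0 (adjusted p = 0.999 in limma). The upstream Mef2a probe stayed between 0.26 and 0.31 with adjusted p of at least 0.0823. Member probes with every P. gingivalis array above every saline array numbered 3, with 4 under median centring, where 23.5% of all probes did so, 4 without saline 2, where 10.5% did, and 2 with the deposited table's processing rebuilt, where 11.2% did.

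Of the other lists, each had 0 calls in the setting reported and 1 to 4 under some alternatives: partners and inhibitors up to 4, differentiation up to 3, proliferation, denervation and MEF2 targets up to 2, and the satellite cell and Notch lists up to 1. In that order the lists had 39, 27, 16, 15, 14, 23 and 18 genes tested. These greatest counts were reached under median centring, where 2385 of 22221 genes passed. Leaving out 1 array moved the list medians to between -0.32 and -0.02 for proliferation, -0.16 and -0.05 for partners and inhibitors, -0.13 and -0.04 for differentiation, and -0.12 and 0 for denervation, with 0 calls in any list.

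The count over all genes was 26. It was 453 with normexp, 216 with quantile normalization, 2385 with median centring, 261 when a probe had to be well above background on all 8, 5154 with no filter on dim probes, 9 with the mean of probes, 57 with every probe tested, 567 with a trended and robust variance, 199 with array weights, 349 with the table's processing rebuilt and 8 with the most downstream probe. Leaving out 1 array left 2 to 6, and leaving out P. gingivalis 3 and saline 1 left 0 (3072 at an unadjusted p under 0.05). A replicate block in limma left 0 genes (4432 at an unadjusted p under 0.05), and no gene of the 10 changed its call. The cause of these shifts was not tested. With 4 arrays per group, these values do not exclude changes that lie inside the intervals given, and Myf5 lay below the background limit of these arrays.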
